A study of Mus musculus with 12 samples.

Results

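Tetraspanins are small membrane proteins that cross the membrane several times and gather other proteins around them, among them integrins, MHC class II molecules, immunoglobulin superfamily proteins and the membrane protease ADAM10. In dendritic cells and macrophages they are known for organising antigen-presenting and adhesion molecules at the cell surface, for sorting cargo in endosomes, and as components of exosomes. Their RNA was followed here in mouse bone marrow cultures. A gene was included if its single symbol in the annotation of the array was Tspan followed by digits, or was Cd9, Cd37, Cd53, Cd63, Cd81, Cd82 or Cd151. This gave 26 of 19938 genes, each with 1 probe set, and every one of them is accounted for. Of 27 RefSeq symbols of this form, 1 (Tspan7) was not analysed here.

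Marrow from the tibia and femur of C57B/6 mice was grown for 6 days in 20 ng/ml GM-CSF, a growth factor that yields both dendritic cells and macrophages. The cells labelled GM-DC (dendritic) and GM-MF (macrophage) were left unstimulated or given 10 ng/ml lipopolysaccharide (LPS), a bacterial ligand of Toll-like receptor 4, for 4 hours. Each of the 4 groups held 3 arrays. All groups therefore shared the strain and the GM-CSF culture, no genotype is named, and how GM-DC were separated from GM-MF is not given in the sources used here. No label states that arrays of a group came from separate mice or cultures, so the p-values may measure technical spread only.

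Levels are log2 expression values, and a difference of 1 is a 2-fold change. Differences are given ± the standard error of the limma fit, n = 3 arrays per group, and a gene was called higher or lower at a limma adjusted p under 0.05 (Benjamini-Hochberg over 19938 genes). Within groups the correlation between arrays, taken over genes, was 0.993 to 0.996. The 8 dendritic cell markers had a mean level of 9.05 to 9.43 in the GM-DC arrays and 5.47 to 6.73 in the GM-MF arrays, and the 8 macrophage markers 5.77 to 6.03 and 10.09 to 10.29. In each state 7 of the 8 dendritic cell markers were called higher in GM-DC and 1 was not called. All 8 macrophage markers were called lower in GM-DC in both states. With LPS 5 of the 8 dendritic cell markers rose in GM-MF, where the mean of all 8 was 5.47 to 5.85 without LPS and 6.25 to 6.73 with it. Of 7 platelet and megakaryocyte markers, a cell type rich in tetraspanins, 4 were measured, with means of 5.41 to 6.12 in GM-DC and 6.81 to 7.31 in GM-MF. In that list Pf4 was high in GM-MF, and Itga2b and Gp9 were low in every group. In each group 2 of the 4 lay above the median of all genes. Without LPS 2 of the 4 were called lower in GM-DC, and 0 higher. Neutrophil markers had means of 5.63 to 5.80 in GM-DC and 5.95 to 6.37 in GM-MF. The part of these lists in the tetraspanin differences was not tested. In bulk RNA, fewer cells of a type and less RNA per cell cannot be told apart.

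The tetraspanins spanned a wide range of levels, with means over 12 arrays from 2.31 (Tspan6) to 11.40 (Cd63). The mean over 12 arrays of 16 members lay above 4.86, the median of all genes. In every group 14 members were above that median and 9 below it. No background call was available, so a low level is not evidence of absence.

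Without LPS, GM-DC and GM-MF differed in 16 of 26 tetraspanins. GM-DC had higher Tspan13, Tspan33, Tspan2 and Tspan3. They had lower RNA for 12 others, including all 4 leukocyte tetraspanins (Cd37, Cd53, Cd82 and Tspan32) and the broadly expressed Cd9, Cd81 and Cd151. Among all genes 18.0% were called higher and 16.2% lower in this comparison, 34.2% in all, against 61.5% of the tetraspanins. Of the 16 called members 11 differed at least 2-fold, 4 higher and 7 lower, and 12.7% of all genes were called at that size. The members' median difference was -0.14, beside -0.01 over all genes.

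**Figure D1:**
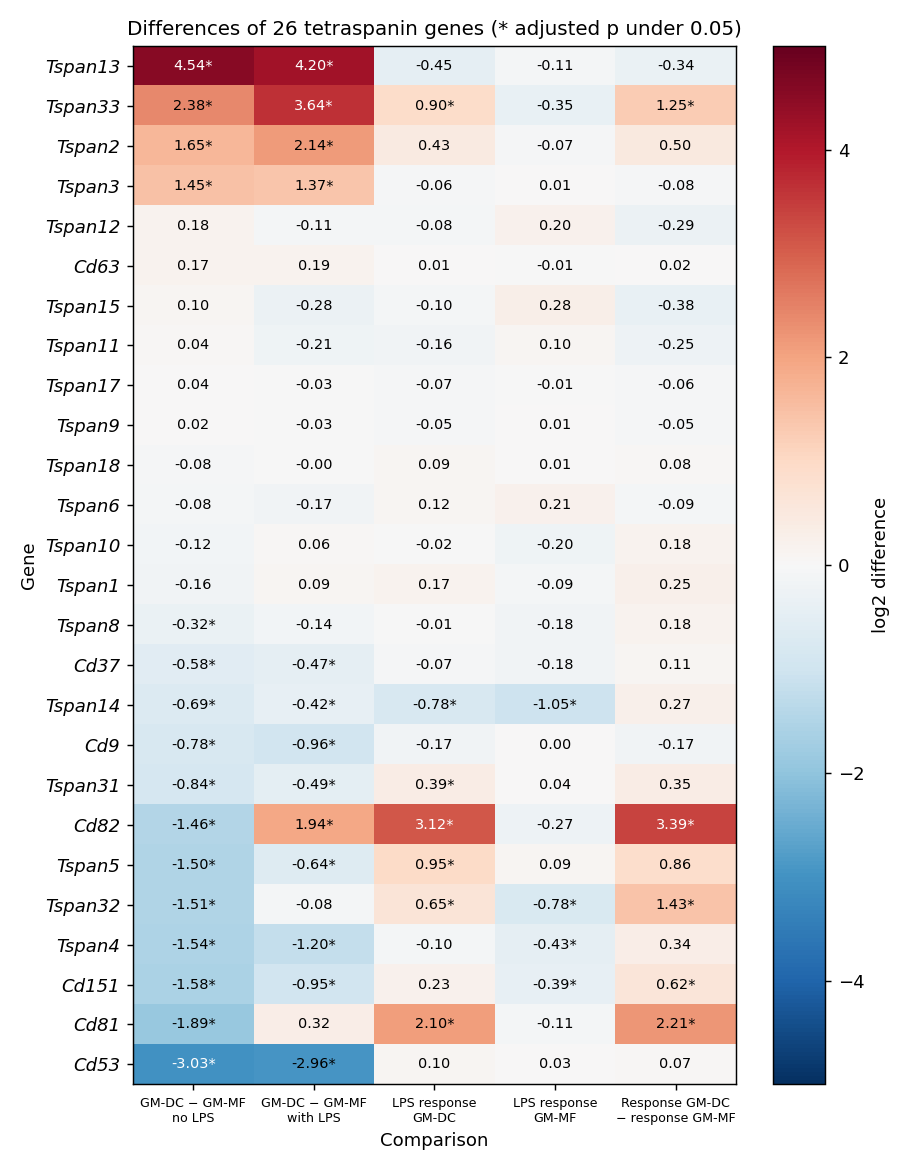
Log2 differences of the 26 tetraspanin genes (rows, ordered by the GM-DC minus GM-MF difference without LPS) in 5 comparisons (columns), with colour from blue (negative) to red (positive) and a star for a limma adjusted p under 0.05. Tspan13, at 4.54, heads the first column and Cd53, at -3.03, ends it, and Cd82 changes sign between the first column and the second.

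Tspan13 had the largest cell-type difference of the family. Its levels were 10.54, 10.54 and 10.64 in unstimulated GM-DC and 5.76, 6.16 and 6.19 in unstimulated GM-MF. With LPS they were 9.97, 9.99 and 10.40 in GM-DC and 6.12, 5.73 and 5.91 in GM-MF. All GM-DC arrays lay far above all GM-MF arrays, 23.2-fold without LPS (4.54 ± 0.15, limma adjusted p = 4.86e-12) and 4.20 ± 0.15 on the log2 scale with it (limma adjusted p = 1.03e-11). In GM-DC the LPS arrays were all below the unstimulated ones, by -0.45 ± 0.15, which missed the threshold (limma adjusted p = 0.0724). That difference was called in some alternatives, for example without GM-DC LPS replicate 3 (-0.59, limma adjusted p = 0.0185) and without GM-MF unstimulated replicate 1 (limma adjusted p = 0.0482).

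Tspan2, best known from oligodendrocytes, and Tspan3 were the other GM-DC genes outside the ADAM10-binding subgroup. Tspan2 read 5.93, 5.56 and 5.64 in GM-DC and 4.25, 4.16 and 3.78 in GM-MF without LPS. With LPS it read 6.27, 6.23 and 5.93, against 3.77, 4.16 and 4.07. The cell types did not overlap in either state, with log2 differences of 1.65 ± 0.15 (limma adjusted p = 3.77e-07) and 2.14 ± 0.15 (limma adjusted p = 1.92e-08). The GM-MF levels of Tspan2 lay below the median of all genes.

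Tspan3 separated the cell types and was not called in either LPS response. Its GM-DC levels were 10.29, 10.40 and 9.93 without LPS and 10.30, 10.30 and 9.83 with it. Its GM-MF levels were 8.80, 8.85 and 8.63, then 8.76, 8.94 and 8.62. The GM-DC values were higher in every array, by 1.45 ± 0.15 without LPS (limma adjusted p = 1.56e-06) and 1.37 ± 0.15 with it (limma adjusted p = 2.68e-06), and the LPS differences were -0.06 (95% interval -0.39 to 0.26) in GM-DC and 0.01 (-0.31 to 0.34) in GM-MF. Rom1, a photoreceptor tetraspanin outside the symbol rule, was likewise higher in GM-DC, by 1.18 and 1.60, while the other 3 such genes (Upk1a, Upk1b and Prph2) were not called in any comparison.

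**Figure D2:**
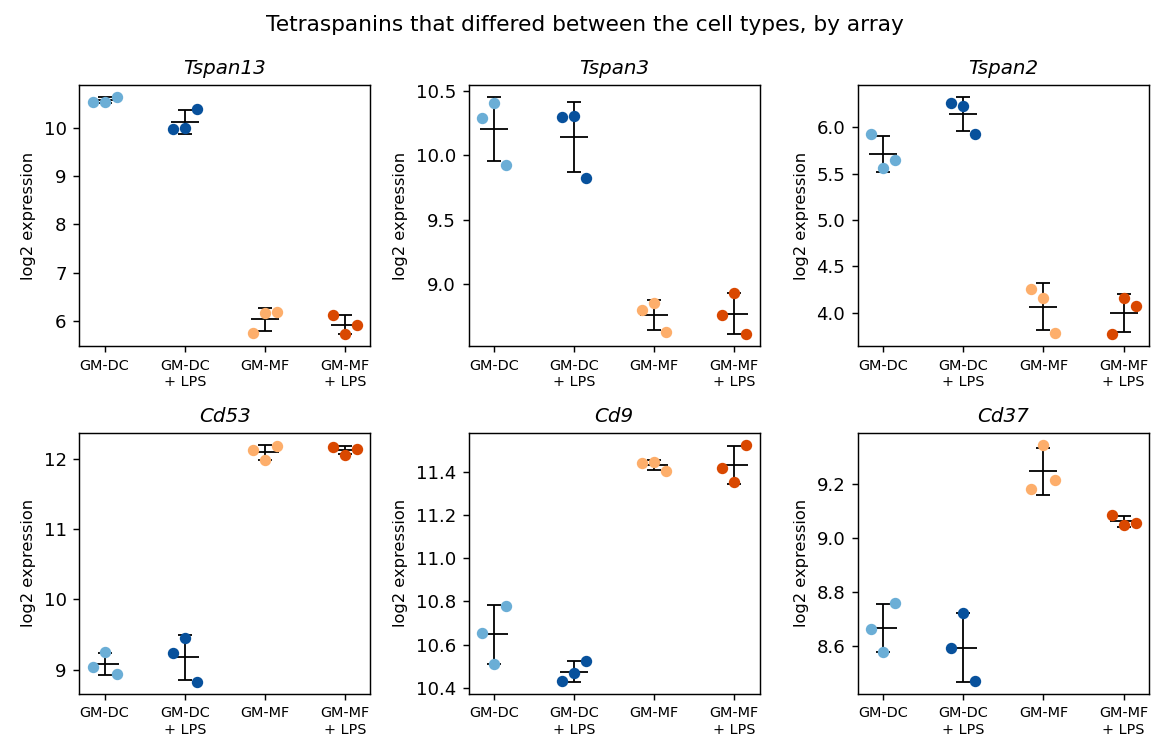
Log2 expression (vertical axis) of 6 tetraspanins in each array of the 4 groups (horizontal axis), with the mean as a bar and the SD as whiskers, n = 3. In all 6 genes the GM-DC arrays are separate from the GM-MF arrays with and without LPS, the upper row higher in GM-DC and the lower row higher in GM-MF.

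Cd53, a tetraspanin of most leukocytes, was the gene most shifted toward GM-MF. Its levels were 9.04, 9.25 and 8.94 in unstimulated GM-DC and 12.13, 11.99 and 12.20 in unstimulated GM-MF. With LPS they were 9.24, 9.46 and 8.82 in GM-DC and 12.18, 12.07 and 12.15 in GM-MF. The GM-DC arrays were lower by 8.16-fold without LPS (-3.03 ± 0.14, limma adjusted p = 1.85e-10) and 7.77-fold with it (-2.96 ± 0.14, limma adjusted p = 2.62e-10), and LPS left each cell type within 0.10 of its own level.

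Cd37, a leukocyte tetraspanin known to bind the fungal receptor dectin-1, and Cd9, an abundant exosome tetraspanin that acts in cell fusion, were lower in GM-DC by less. The Cd37 difference was -0.58 ± 0.10 without LPS (limma adjusted p = 2.09e-04) and -0.47 ± 0.10 with it (limma adjusted p = 0.00128). For Cd9 it was -0.78 ± 0.10 (limma adjusted p = 8.99e-06) and -0.96 ± 0.10 (limma adjusted p = 1.02e-06). Neither gene was called in an LPS response, and the cell types did not overlap in either state. Cd63, the tetraspanin of late endosomes, lysosomes and exosomes, was at 11.48 without and 11.49 with LPS in GM-DC, and at 11.31 in both GM-MF groups. Its difference of 0.17 without LPS was not called (limma adjusted p = 0.234, 95% interval -0.04 to 0.38). After quantile normalization it was 0.35 (limma adjusted p = 0.017), and 0.45 with LPS (limma adjusted p = 0.00337).

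Cd151, which anchors laminin-binding integrins, and Tspan4, which is needed to form migrasomes, were lower in GM-DC and declined in GM-MF after LPS. Cd151 levels were 6.04, 5.89 and 6.01 in GM-DC and 7.72, 7.29 and 7.66 in GM-MF without LPS, then 6.26, 6.24 and 6.14 in GM-DC and 7.27, 7.05 and 7.18 in GM-MF with it. Tspan4 levels were 5.31, 5.10 and 5.14 in GM-DC and 6.67, 6.48 and 7.01 in GM-MF, then 5.02, 5.09 and 5.15 and 6.20, 6.19 and 6.47. Every GM-MF array of both genes was above every GM-DC array. The cell-type differences without LPS were -1.58 ± 0.12 for Cd151 (limma adjusted p = 3.49e-08) and -1.54 ± 0.13 for Tspan4 (limma adjusted p = 1.62e-07), and both remained called with LPS at -0.95 and -1.20. The LPS differences in GM-MF were -0.39 ± 0.12 and -0.43 ± 0.13 (limma adjusted p = 0.0315 and 0.0328). Both calls were lost after median centring, quantile normalization and cyclic loess. They were also lost without GM-MF unstimulated replicate 1 or 3 or GM-MF LPS replicate 2, the Cd151 call without GM-MF LPS replicate 3 and the Tspan4 call without GM-MF LPS replicate 1, with limma adjusted p up to 0.146 for Cd151 and 0.172 for Tspan4.

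Tspan31, first found as an amplified gene in sarcoma, and Tspan8, a tetraspanin of epithelial tumours, were also lower in GM-DC. Tspan31 differed by -0.84 ± 0.11 without LPS (limma adjusted p = 1.27e-05) and -0.49 ± 0.11 with it (limma adjusted p = 0.00182). It rose with LPS in GM-DC by 0.39 ± 0.11 (limma adjusted p = 0.0321), a call lost without any 1 of the unstimulated GM-DC arrays or without GM-DC LPS replicate 1 or 2 (limma adjusted p up to 0.143). Tspan8 had mean levels of 3.08 (GM-DC) and 3.39 (GM-MF) and differed by -0.32 ± 0.11 (limma adjusted p = 0.0303). Its level was under the median of all genes in every group, and the call was lost under 3 other scalings, and without GM-DC unstimulated replicate 1 or 2 or GM-MF unstimulated replicate 1 or 3 (limma adjusted p up to 0.136).

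With LPS, 13 of 26 members differed between the cell types, 5 higher and 8 lower in GM-DC, 50% of the members against 36.3% of all genes (20.9% higher and 15.4% lower). At least 2-fold differences were called for 7 members and 12.9% of all genes, and the members' median was -0.10 beside 0.00 over all genes. Both states, which share no arrays but share the fit's estimate of the spread, called 12 members in the same direction and 1, Cd82, in opposite directions. The share of all genes called in both states is not given here. Among the 12, the calls of Tspan5 and Tspan14 with LPS were lost in some alternatives. Of the 12 members lower in unstimulated GM-DC, Cd82 was higher after LPS, and Cd81, Tspan32 and Tspan8 were no longer called.

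LPS raised 6 tetraspanins in GM-DC: Cd82, Cd81, Tspan5, Tspan33, Tspan32 and Tspan31. It lowered 1, Tspan14. In GM-MF it raised 0 and lowered 4: Tspan14, Tspan32, Tspan4 and Cd151. Among all genes 5.23% were called higher and 4.49% lower in GM-DC, 9.72% in all, against 26.9% of the members. In GM-MF 6.54% of all genes were called higher and 10.8% lower, 17.4% in all, against 15.4% of the members. The share called in GM-MF was close to that of all genes. Changes of at least 2-fold were called for 2 members in GM-DC and 1 in GM-MF, against 2.08% and 3.17% of all genes. The members' median was 0.00 in GM-DC and -0.04 in GM-MF, beside -0.01 and -0.02 over all genes. The LPS response of GM-DC and the unstimulated cell-type difference both use the unstimulated GM-DC arrays, so their values are not independent of each other. In GM-DC the count of lowered members was 2, with Tspan13 added, without GM-DC LPS replicate 3 or GM-MF unstimulated replicate 1. In GM-MF it was 2 without GM-MF unstimulated replicate 1 or 3, or GM-MF LPS replicate 2.

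**Figure D3:**
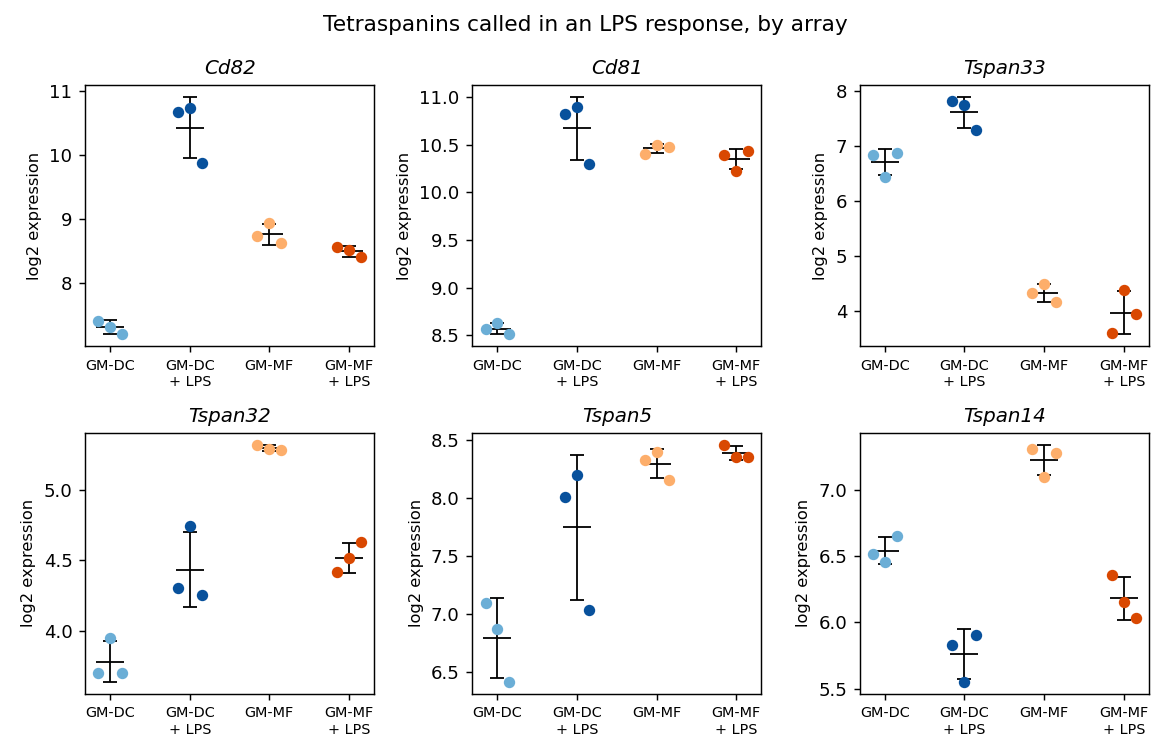
Log2 expression (vertical axis) of 6 tetraspanins called in an LPS response, in each array of the 4 groups (horizontal axis), with the mean as a bar and the SD as whiskers, n = 3. Cd82, Cd81, Tspan33, Tspan32 and Tspan5 are higher in GM-DC with LPS than without on average, GM-DC LPS replicate 3 lies below the other GM-DC LPS arrays in Cd82, Cd81, Tspan33 and Tspan5, and Tspan14 is lower with LPS in both cell types.

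Cd82, a leukocyte tetraspanin also known as a metastasis suppressor and a partner of MHC class II in endosomes, had the largest response. Its levels in GM-DC were 7.42, 7.32 and 7.20 without LPS and 10.68, 10.75 and 9.88 with it. In GM-MF they were 8.73, 8.95 and 8.62 without LPS and 8.57, 8.52 and 8.41 with it. The order of the groups was unstimulated GM-DC lowest, both GM-MF groups between, and GM-DC with LPS highest, and the GM-MF groups were adjacent without a called difference (-0.27 ± 0.18, limma adjusted p = 0.397). Cd82 rose 8.71-fold in GM-DC (3.12 ± 0.18, limma adjusted p = 2.79e-08). GM-DC minus GM-MF was -1.46 ± 0.18 without LPS (limma adjusted p = 9.37e-06) and 1.94 ± 0.18 with it (limma adjusted p = 4.15e-07). The responses of the cell types differed by 3.39 ± 0.25 (limma adjusted p = 1.55e-06).

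Cd81, a broadly expressed tetraspanin and a marker of exosomes, also rose in GM-DC, to levels that overlapped those of GM-MF. Its GM-DC arrays read 8.57, 8.63 and 8.51, then 10.83, 10.90 and 10.30 with LPS. Its GM-MF arrays read 10.41, 10.50 and 10.48, then 10.40, 10.23 and 10.43. Unstimulated GM-DC stood below all other arrays, and the LPS arrays of the cell types overlapped. Cd81 rose 4.30-fold in GM-DC (2.10 ± 0.14, limma adjusted p = 8.91e-08), and the responses differed by 2.21 ± 0.19 (limma adjusted p = 4.48e-06). After LPS the cell-type difference was 0.32 (95% interval 0.03 to 0.61), not called at a limma adjusted p of 0.0818. It was called without GM-DC LPS replicate 3 (0.51, limma adjusted p = 0.00131), after quantile normalization (0.58, limma adjusted p = 0.00206), with a variance trend (limma adjusted p = 0.0375) and with a trend and robust fit (limma adjusted p = 0.0381). Without GM-DC LPS replicate 2 the difference shrank to 0.21 (limma adjusted p = 0.313).

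GM-DC LPS replicate 3 had the lowest Cd82, Cd81, Tspan5, Tspan33 and Tspan32 of its group. Its dendritic cell marker mean was 9.37, beside 9.43 and 9.34 in the other arrays of the group, and its platelet marker mean was 5.93, beside 5.41 and 5.44. Unstimulated GM-DC replicate 3 was likewise the highest of its group in platelet markers, at 6.12 beside 5.58 and 5.70. Without GM-DC LPS replicate 3 the LPS response in GM-DC was 10.6-fold for Cd82 (3.40, limma adjusted p = 1.23e-09) and 2.29 on the log2 scale for Cd81 (limma adjusted p = 9.93e-09).

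Tspan32, a tetraspanin of blood cells known to restrain T cell proliferation, moved in opposite directions in the cell types. Its GM-DC levels were 3.70, 3.95 and 3.70 without LPS and 4.30, 4.74 and 4.26 with it. Its GM-MF levels were 5.32, 5.29 and 5.28 without LPS and 4.41, 4.51 and 4.63 with it. It rose by 0.65 ± 0.13 in GM-DC (limma adjusted p = 0.00358) and fell by 0.78 on the log2 scale in GM-MF (SE 0.13, limma adjusted p = 5.03e-04), with no overlap within either cell type. The cell types differed by -1.51 ± 0.13 before LPS (limma adjusted p = 1.41e-07) and overlapped after it (-0.08, 95% interval -0.36 to 0.19). The responses differed by 1.43 ± 0.18 (limma adjusted p = 1.38e-04). Except in unstimulated GM-MF, the levels lay below the median of all genes.

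**Figure D4:**
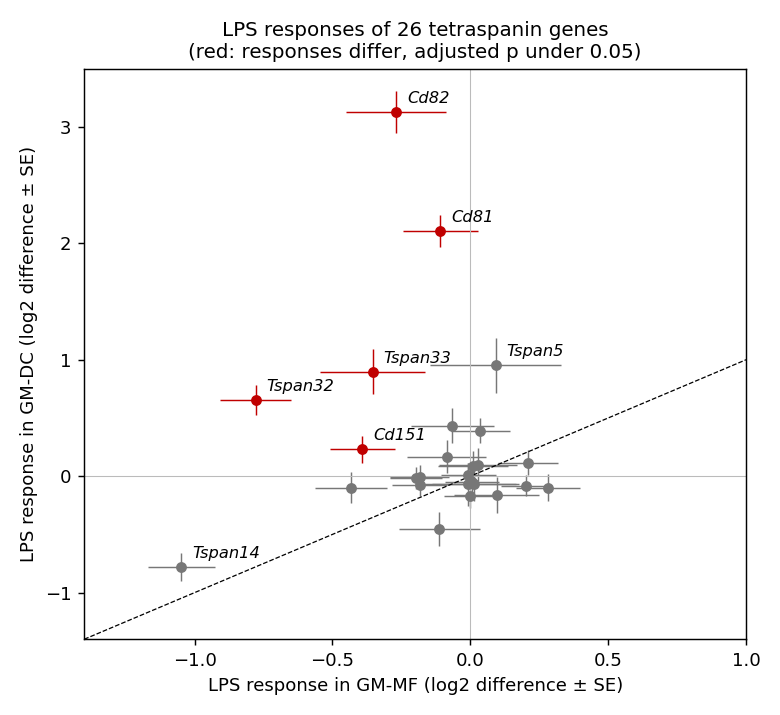
LPS response in GM-DC (vertical axis, log2 difference ± SE) against that in GM-MF (horizontal axis, log2 difference ± SE) for 26 tetraspanin genes, with the dashed line where both are equal and red where the responses differ at a limma adjusted p under 0.05. The 5 red genes, Cd82, Cd81, Tspan32, Tspan33 and Cd151, all lie above the line, and Tspan14 is low on both axes.

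The difference between the responses was called for 5 members, all in the direction of GM-DC, which is 19.2% of the members against 7.59% of all genes (4.53% higher and 3.06% lower). Of the 5, 4 differed at least 2-fold, a size called for 3.26% of all genes, and the members' median was 0.145 beside 0.02. Besides Cd82, Cd81 and Tspan32 these were Tspan33 (1.25 ± 0.27, limma adjusted p = 0.00871) and Cd151 (0.62 ± 0.17, limma adjusted p = 0.0321). The Cd151 LPS difference was 0.23 in GM-DC, not called, and its response difference was lost when arrays were centred on a common median (limma adjusted p = 0.102) and in 9 of the 12 fits without 1 array, with limma adjusted p up to 0.0888 (the exceptions left out GM-MF unstimulated replicate 2, GM-DC LPS replicate 3 or GM-MF LPS replicate 1).

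The TspanC8 subgroup (Tspan5, Tspan10, Tspan14, Tspan15, Tspan17 and Tspan33) escorts ADAM10, the protease that sheds Notch and other surface proteins, from the endoplasmic reticulum, and each member is known to direct it to different substrates. Of these 6 genes 3 (Tspan33, Tspan5 and Tspan14) were called in at least 1 comparison. The share of all genes called in at least 1 comparison is not given here, so this count has no background beside it. Without LPS 1 was higher and 2 were lower in GM-DC, 50% of the subgroup beside 34.2% of all genes. In GM-DC LPS raised 2 and lowered 1, 50% beside 9.72% of all genes, and in GM-MF it lowered 1, 16.7% beside 17.4%.

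Tspan33 was the only TspanC8 gene called higher in GM-DC than in GM-MF. Within GM-DC its mean level was near that of Tspan5, 6.71 and 6.80 without LPS and 7.61 and 7.75 with it. Levels of different genes come from different probe sets and do not measure their relative amounts of RNA. The array levels of Tspan33 are given here. Its levels were 6.83, 6.44 and 6.87 in unstimulated GM-DC and 7.81, 7.74 and 7.29 with LPS. In GM-MF they were 4.32, 4.50 and 4.16, then 3.60, 4.38 and 3.94, all below the median of all genes. Every GM-DC array was above every GM-MF array and every GM-DC LPS array above the unstimulated ones. The cell-type difference was 5.22-fold without LPS (2.38 ± 0.19, limma adjusted p = 7.74e-08) and 12.4-fold with it (3.64 ± 0.19, limma adjusted p = 6.86e-10), and the rise with LPS in GM-DC was 0.90 ± 0.19 (limma adjusted p = 0.00635).

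Tspan5, like Tspan14, was higher in unstimulated GM-MF, and it rose with LPS in GM-DC. Its GM-DC levels were 7.09, 6.88 and 6.42 without LPS and 8.01, 8.20 and 7.03 with it. Its GM-MF levels were 8.33, 8.40 and 8.16, then 8.46, 8.35 and 8.36. GM-DC were lower by 2.83-fold without LPS (-1.50 ± 0.24, limma adjusted p = 1.06e-04), and LPS raised the GM-DC level by 0.95 ± 0.24 (limma adjusted p = 0.018), although LPS replicate 3 overlapped the unstimulated arrays. That rise was not called without GM-DC LPS replicate 1 or 2 or GM-DC unstimulated replicate 3 (limma adjusted p up to 0.101), and without replicate 3 it was 1.31 (limma adjusted p = 1.22e-04). The difference of -0.64 with LPS (limma adjusted p = 0.0465) was lost in 11 alternatives, 8 of which each left out 1 array, and was -0.28 without GM-DC LPS replicate 3 (limma adjusted p = 0.226). The difference of the responses, 0.86, was not called (limma adjusted p = 0.163), but was called without that array (1.22, limma adjusted p = 0.00298) and with the replicate number as a block within each cell type (0.86, limma adjusted p = 0.0153).

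Tspan14 fell with LPS in both cell types. Its levels went from 6.52, 6.46 and 6.65 to 5.83, 5.55 and 5.91 in GM-DC. In GM-MF they went from 7.31, 7.10 and 7.28 to 6.36, 6.15 and 6.04. No LPS array reached an unstimulated array of its cell type. The differences were -0.78 ± 0.12 in GM-DC (limma adjusted p = 5.69e-04) and -1.05 ± 0.12 in GM-MF (limma adjusted p = 2.23e-05). The responses were not called different (0.27, 95% interval -0.10 to 0.63, limma adjusted p = 0.485). GM-DC were lower without LPS (-0.69, limma adjusted p = 2.89e-04) and with it (-0.42, limma adjusted p = 0.0119), the latter not called without GM-DC LPS replicate 2 (limma adjusted p = 0.0676) or GM-MF LPS replicate 1 (limma adjusted p = 0.0643).

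Tspan17 stood between 6.20 and 6.27 in the 4 groups, with no call. Tspan10 and Tspan15 were below the median of all genes in every group, and neither was called. For Tspan15 the GM-DC and GM-MF arrays with LPS did not overlap (-0.28, limma adjusted p = 0.079). This difference was called without GM-DC LPS replicate 2 (limma adjusted p = 0.0306) and after median centring (limma adjusted p = 0.021). It was also called after cyclic loess (limma adjusted p = 0.0472) and with the replicate number as a block (limma adjusted p = 0.0365). Without GM-DC LPS replicate 1 it was -0.18 (limma adjusted p = 0.316). Adam10 itself was lower in GM-DC than in GM-MF by -0.92 ± 0.11 without LPS (limma adjusted p = 1.06e-05). It fell in GM-MF by 0.74 on the log2 scale (SE 0.11, limma adjusted p = 2.99e-04), while its difference in GM-DC was -0.15 (limma adjusted p = 0.576). The responses differed by 0.59 (limma adjusted p = 0.0373), which was lost after median centring (0.54, limma adjusted p = 0.108), after cyclic loess, with adjustment over all probe sets and in 9 of the 12 fits without 1 array (limma adjusted p up to 0.0935).

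The 10 members called in none of the 5 comparisons were Cd63, Tspan17 and 8 genes below the median of all genes in every group: Tspan1, Tspan6, Tspan9, Tspan10, Tspan11, Tspan12, Tspan15 and Tspan18. Tspan12, the co-receptor of Frizzled-4 in Norrin signalling of the retina, was at 2.57 to 2.77 in the group means, and Tspan6 at 2.19 to 2.48. Tspan9, a platelet tetraspanin, was at 4.00 to 4.05. The largest difference among these 10 genes was -0.38, for the responses of Tspan15. The share of all genes called in none of the comparisons is not given here.

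Some members are neighbours in the genome. In the RefSeq gene order of GRCm38.p6, Tspan32 and Cd81 on chromosome 7 have 0 protein-coding genes between them, as do Tspan18 and Cd82 on chromosome 2 and Tspan11 and Tspan9 on chromosome 6, and Cd151 and Tspan4 on chromosome 7 have 1 (Polr2l). Tspan32 and Cd81 both rose in GM-DC with LPS but differed in GM-MF, where Tspan32 fell and Cd81 was not called. Cd151 and Tspan4 were both lower in GM-DC and both called lower with LPS in GM-MF. Those GM-MF calls were lost after median centring, quantile normalization and cyclic loess. Cd82 rose beside Tspan18, which stayed at 3.63 to 3.72, and neither Tspan11 nor Tspan9 was called.

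The promoters of the 4 members whose LPS responses differed most between the cell types are shown so that a reader can see the sequence upstream of each. They are the 250 bases before the RefSeq start in GRCm38.p6, from 5′ to 3′ along the gene, with capitals for matches to any of 6 searched motifs. RefSeq gives 4 such windows for Cd82, of which 2 are shown, the most upstream and the one with a PU.1 motif. The first shown is chr2:93462951-93463200 and the second, before an alternative start, chr2:93461852-93462101, both on the minus strand. Of the windows not shown, chr2:93462503-93462752 holds a GC box and chr2:93452673-93452922 no searched motif. The others, on the plus strand, are chr7:143052500-143052749 (Cd81), chr7:143004796-143005045 (Tspan32) and chr6:29693964-29694213 (Tspan33).
Cd82, first window: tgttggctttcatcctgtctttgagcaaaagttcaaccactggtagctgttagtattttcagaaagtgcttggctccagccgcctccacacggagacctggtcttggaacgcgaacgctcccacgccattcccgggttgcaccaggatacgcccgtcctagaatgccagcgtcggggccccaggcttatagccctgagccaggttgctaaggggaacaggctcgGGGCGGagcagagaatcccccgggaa
Cd82, second window: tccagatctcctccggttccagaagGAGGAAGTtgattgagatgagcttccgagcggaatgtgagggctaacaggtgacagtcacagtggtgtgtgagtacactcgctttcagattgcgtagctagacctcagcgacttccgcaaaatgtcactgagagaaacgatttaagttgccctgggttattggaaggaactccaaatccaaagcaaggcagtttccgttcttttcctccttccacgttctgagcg
Cd81: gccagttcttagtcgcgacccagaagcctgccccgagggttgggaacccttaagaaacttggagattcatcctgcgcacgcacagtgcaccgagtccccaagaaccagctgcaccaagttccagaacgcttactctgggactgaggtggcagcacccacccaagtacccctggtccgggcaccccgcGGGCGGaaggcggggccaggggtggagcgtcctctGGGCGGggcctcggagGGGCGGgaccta
Tspan32: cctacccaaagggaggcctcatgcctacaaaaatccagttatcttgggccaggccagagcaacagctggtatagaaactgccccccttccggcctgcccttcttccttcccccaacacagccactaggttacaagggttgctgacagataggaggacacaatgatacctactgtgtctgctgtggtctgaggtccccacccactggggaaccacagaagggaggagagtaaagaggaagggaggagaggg
Tspan33: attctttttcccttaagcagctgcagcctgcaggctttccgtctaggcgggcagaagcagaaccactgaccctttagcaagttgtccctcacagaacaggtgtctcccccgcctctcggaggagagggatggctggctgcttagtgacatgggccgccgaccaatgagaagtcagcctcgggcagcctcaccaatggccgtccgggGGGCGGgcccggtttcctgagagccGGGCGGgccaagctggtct

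RefSeq promoters were found for 25 of the 26 members, 35 windows in all, and each motif was searched on both strands; 0 matches overlapped another motif in these windows. The capitals mark GC boxes (GGGCGG) in the first Cd82 window, Cd81 and Tspan33, and the PU.1 motif GAGGAAGT in the second Cd82 window. GC boxes were in 42.9% of the members' windows and 32.7% of 32851 windows of all genes, and the PU.1 motif was in 2 member windows (Cd82 and Cd37) and 2.44% of all. The kappaB motif was in the windows of Tspan9 and Tspan11 and 3.9% of all windows, AP-1 (TGANTCA) in that of Tspan15 and 6.75%, and TATAAA in that of Tspan12 and 12.4%. An ISRE-like motif was in 0 member windows and 2.98% of all. No searched motif was in the Tspan32 window. A match describes letters only and does not show binding.

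Genes whose proteins work with tetraspanins were described by list. Of 13 integrin genes 3 were higher and 6 lower in unstimulated GM-DC, 69.2% called beside 34.2% of all genes (18.0% higher and 16.2% lower), with a median of -0.25 beside -0.01. The beta2 integrin family led the lower genes, with Itgam at -4.71, Itgal at -3.62, Itgb2 at -3.08 and Itgax at -2.20, and Itgam is also 1 of the macrophage markers. Itgax (CD11c) is widely used as a dendritic cell marker, was not in the dendritic marker list here, and was lower in GM-DC (± 0.27, limma adjusted p = 7.25e-06). Itga6, a laminin-binding partner of Cd151, was higher in GM-DC, by 1.99 ± 0.19 without LPS (limma adjusted p = 4.78e-07) and 2.25 ± 0.19 with it (limma adjusted p = 1.18e-07), while Cd151 was lower. Itgb1 was not called in any comparison. LPS raised 2 integrin genes in each cell type, 15.4% of the list beside 9.72% of all genes called in GM-DC and 17.4% in GM-MF. The Itga4 call in GM-MF was lost without GM-MF unstimulated replicate 1 or 2 or GM-MF LPS replicate 1 or 3. In GM-DC Itgal rose by 1.12 ± 0.19 (limma adjusted p = 0.00106), and its response exceeded that in GM-MF by 1.37 ± 0.26 (limma adjusted p = 0.00408).

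Of 13 other membrane partners 12 were measured, with 3 higher and 6 lower in unstimulated GM-DC, 75% called beside 34.2% of all genes, and a median of -0.40. Clec7a (dectin-1), the partner of Cd37, was lower by -4.22 ± 0.16 (limma adjusted p = 1.67e-11), and Hbegf, the growth factor held by Cd9, by -2.10 ± 0.15 (limma adjusted p = 1.97e-08). RNA for both EWI proteins, which bind Cd9 and Cd81, was lower in GM-DC, Igsf8 by -0.94 and Ptgfrn by -0.57. Of the 3 higher genes Ifitm1 differed most, by 1.22 ± 0.17 (limma adjusted p = 3.88e-05). LPS raised 3 of these genes in GM-DC and 3 in GM-MF, and lowered 1 (Clec7a) in GM-MF, 25% and 33.3% called beside 9.72% and 17.4% of all genes. Igsf8 rose by 1.03 ± 0.13 in GM-DC (limma adjusted p = 7.76e-05) and by 0.76 ± 0.13 in GM-MF (limma adjusted p = 5.55e-04), where Cd81 and Cd9 were not called. The MHC class II genes H2-Aa, H2-Ab1 and H2-Eb1 were not called in either LPS response.

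Of 13 genes of ADAM10, ADAM17 and their substrates or ligands, 3 were higher and 6 lower in unstimulated GM-DC, 69.2% called beside 34.2% of all genes, with a median of -0.05. Cx3cl1 was higher by 3.40, while Notch1 was lower by -3.08 and Adam17 by -2.35. Jag1, a Notch ligand, was lower in unstimulated GM-DC by -2.91 ± 0.15 (limma adjusted p = 6.90e-10), rose there by 2.09 ± 0.15 (limma adjusted p = 3.77e-07) and differed by -0.03 from GM-MF with LPS. LPS raised 1 gene of this list and lowered 1 in GM-DC, 15.4% called beside 9.72% of all genes. The lowered gene was Cxcl16 (-0.32, limma adjusted p = 0.0291), a call lost in several alternatives. In GM-MF LPS raised 3 and lowered 2, 38.5% beside 17.4% of all genes. There Jag1 fell by 0.79 on the log2 scale (limma adjusted p = 0.00186) and Notch2 rose by 1.02 (limma adjusted p = 4.17e-05).

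Of 23 exosome and ESCRT genes 2 were higher and 8 lower in unstimulated GM-DC, with a median of -0.15. The share called was 43.5%, beside 34.2% of all genes. After LPS 0 rose and 2 fell in GM-DC (8.7%, beside 9.72% of all genes), and 1 rose and 1 fell in GM-MF (8.7%, beside 17.4%). The 2 that fell in GM-DC were Sdc1 and Pld2, and 0 were left without GM-DC unstimulated replicate 1 or 2 or GM-DC LPS replicate 1. Rab27a, which docks exosome-bearing endosomes, was higher by 2.74 ± 0.14 (limma adjusted p = 5.35e-10), and Sdcbp (syntenin), which binds Cd63, was lower by -1.78 ± 0.13 (limma adjusted p = 2.85e-08). Of 8 genes of palmitoylation and the cytoskeletal link 2 were higher and 3 lower in GM-DC, among them Prkca at 1.90 and Prkcb at -1.43. The share called was 62.5%, beside 34.2% of all genes. In GM-DC LPS raised 1 of these 8 (Msn) and lowered 2 (37.5%, beside 9.72% of all genes), and in GM-MF it raised 2 (25%, beside 17.4%). The Msn call was lost without any 1 of the unstimulated GM-DC arrays or GM-DC LPS replicate 1 or 2, and that of Ezr, 1 of the 2 lowered genes, without GM-DC unstimulated replicate 1 or GM-DC LPS replicate 2.

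**Figure D5:**
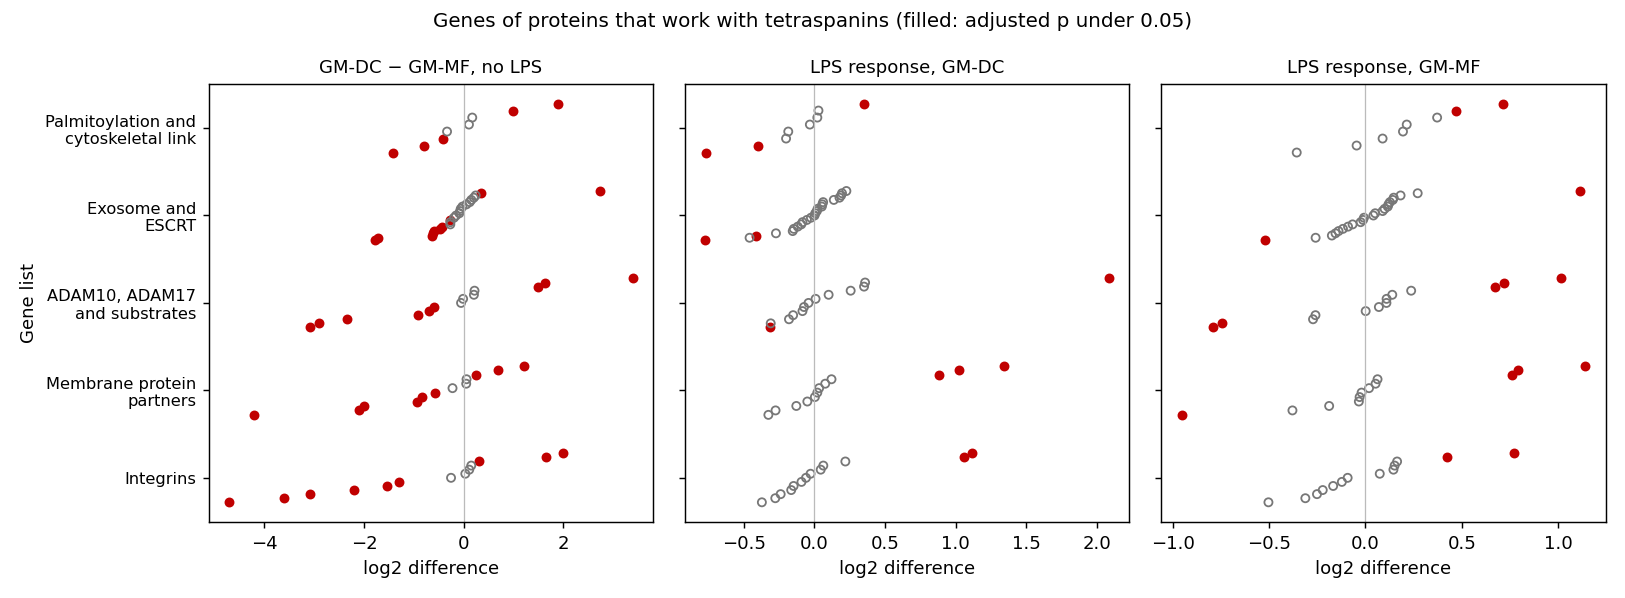
Log2 differences (horizontal axis) of the measured genes of 5 partner lists (vertical axis) in 3 panels, the unstimulated cell-type difference (GM-DC minus GM-MF), the LPS response of GM-DC and that of GM-MF, with filled red points for a limma adjusted p under 0.05. The cell-type panel is the widest, with Itgam at -4.71 and Cx3cl1 at 3.40, and Jag1, at 2.09, is the highest point of the GM-DC LPS panel.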

How the data were processed

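Expression was measured on Affymetrix GeneChip Mouse Gene 1.0 arrays, 12 arrays in 4 groups of 3. Per the submitters' processing notes, the deposited log2 values came from RMA, run in R 3.0.2 by the authors. That the logarithm has base 2 was read from the values, which span 1.18 to 13.7, and RMA settings and the genome build are not given in the sources used here. RMA scales arrays to each other and compresses low signals. Array medians were 4.41 to 4.54. The values were used with no further scaling and no filter, and scanner files were not used here.

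The platform annotation gives 1 gene symbol for 21789 of 35556 probe sets, several for 1621 and none for 12146. RefSeq GRCm38.p6 holds the Entrez identifiers of 21698 of the 21789, and 0 symbols changed. For 999 genes with several probe sets the one with the highest mean was kept. A limma 3.58.1 fit (R 4.3.3) of 4 group means on all 12 arrays, with eBayes without trend and 8 residual degrees of freedom, gave 5 comparisons, two-sided, with Benjamini-Hochberg adjustment over 19938 genes and a threshold of 0.05. The fit was tested on simulated data. Arrays limit the precision by their number.

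Same-numbered arrays, centred on group means, correlated at 0.119 to 0.363 between the GM-DC groups and 0.104 to 0.257 between the GM-MF groups. The main fit used no pairing. A pairing by number within a cell type was tried as an alternative only, from the data and not from the labels. Arrays of different numbers ran from -0.25 to 0.164 in GM-DC, where replicate 3 had the 0.363 and the others 0.119 and 0.136, and from -0.216 to 0.0254 in GM-MF. Between cell types same-numbered arrays ran from -0.168 to 0.233 and arrays of different numbers from -0.214 to 0.184. Alternatives were other scalings, a filter on low genes, other variance models, other adjustment, a replicate block and leaving out each array. A block within each cell type was added after seeing the data.

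Members with a called difference of at least 1 on the log2 scale are given array by array. Partner genes are given by list, with examples from the called members with the largest differences; Adam10, Itgb1, Igsf8, Ptgfrn, Upk1a, Upk1b, Prph2 and the MHC class II genes were named for their role. The members, lists and rules were chosen with earlier results of these data known, so the lists carry no independent support.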

Additional observations from a re-analysis of the deposited data

Results flagged for a closer look

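The LPS response of GM-DC differed from that of GM-MF, by limma's test of the difference itself, for 5 tetraspanins. The difference of the responses on the log2 scale was 3.39 for Cd82, 2.21 for Cd81, 1.43 for Tspan32, 1.25 for Tspan33 and 0.623 for Cd151. Tspan32 rose in GM-DC and fell in GM-MF, while Cd82, Cd81 and Tspan33 rose in GM-DC and were not called in GM-MF. The Cd151 difference was lost in 9 of the 12 fits without 1 array.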

How the results depend on the processing

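Over 130 combinations of a member and a comparison, 23 alternative settings gave 2862 values. Of these 2780 kept their side of the threshold, 63 were no longer called and 19 became called. No called value reversed its direction, while uncalled values near 0 could change sign. Of the 130 combinations 116 kept their call, or lack of one, in every alternative that tested them. Most combinations were uncalled, as the comparisons called 16, 13, 7, 4 and 5 members. Cell-type calls lost in some alternative were Tspan8 without LPS, and Tspan5 and Tspan14 with it. LPS calls lost were Tspan31 and Tspan5 in GM-DC, Cd151 and Tspan4 in GM-MF, and the Cd151 response difference. Averaging probe sets, or leaving out an array outside a comparison, could not move a member's difference. The filter on low genes dropped members with a mean below the median of all genes, Tspan32 and Tspan8 among them. The count of tetraspanins lowered by LPS in GM-DC was 1, and 2 with only genes above the median, with a variance trend, or with a trend and robust fit. The count raised by LPS in GM-DC was 6, and 4 with only the arrays compared or with adjustment over all probe sets, and 4 to 6 without 1 array. The count lowered in GM-MF was 4, and 2 after median centring, quantile normalization or cyclic loess, with only the arrays compared, or with adjustment over all probe sets. The causes were not tested. Leaving out 1 array at a time gave 1 to 2 and 2 to 4 for the lowered counts. With the replicate number as a block, 4 members were higher and 12 lower without LPS, and 5 and 9 with LPS, with Tspan15 added. That block gave 6 and 1 in the LPS response of GM-DC, 0 and 4 in that of GM-MF, and 5 and 0 in the difference of the responses. A block within each cell type gave 6 and 0 for the last, with Tspan5 added, and changed no other call. The fit on only the arrays compared gave no value for the difference of the responses, and the block within each cell type none for the cell-type differences. The 3 arrays per group and the lack of a background call limit statements on the 9 members below the median of all genes in every group.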
